A study of Mus musculus with 13 samples.

Results

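The genes described here encode the collagens and 7 other proteins that were listed with them as interstitial matrix genes. They are the entries of the deposited table whose symbol has the form Col, number, a, number (44 collagens), with Dcn, Lum, Bgn, Sparc, Fn1, Gsn and Fbln1, and make up 51 of 30479 genes. They were chosen by name, not by their values. RNA was measured in mice of 3 genotypes at the Wfdc15a gene at postnatal day 25, when the first round spermatids are present. Whole testis without its capsule, the tunica albuginea, gave 6 libraries: 2 wild type (WT), 1 heterozygous (Het) and 3 knockout (KO), each from about 2 ng of RNA. Round spermatids, the haploid products of meiosis, were profiled in 7 libraries: 2 WT, 2 Het and 3 KO, each from 100 to 200 cells sorted by DNA dye fluorescence. The labels give no strain and no description of the Wfdc15a allele. Nor do they tie a library to an animal, so every p-value below reflects the spread among the libraries at hand, which may be only technical.

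Collagens are proteins with a triple helix, and all but the transmembrane class are secreted and assembled outside the cell. In the testis the fibrillar types I and III lie in the interstitium and the wall of the seminiferous tubule, and type IV forms the sheet of the basement membrane on which Sertoli cells and spermatogonia rest. Fibroblast-like interstitial cells, peritubular myoid cells and Sertoli cells are known sources of this matrix, whereas germ cells after meiosis sit inside the tubule, away from it. Decorin (Dcn), lumican (Lum) and biglycan (Bgn) are small leucine-rich proteoglycans that bind collagen fibrils. Sparc is a collagen-binding protein, Fn1 is fibronectin, Fbln1 is a fibulin of basement membranes and elastic fibres, and Gsn is gelsolin, an actin-severing protein that also has a secreted form.

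Promoter sequences were found in RefSeq for 39 of the 51 genes (assembly GRCm38.p6). Dcn, Col22a1 and Col9a3 had no entry. The 150 bases before the start of Col3a1, Gsn and Bgn are shown because these genes were among those whose levels differed most between sorted libraries, and because no annotated exon overlaps these windows. They lie at chr1:45311388-45311537 (Col3a1), chr2:35256209-35256358 (Gsn) and chrX:73483451-73483600 (Bgn), all on the plus strand. Capitals mark TATAAA in Col3a1 and GGGCGG, or CCGCCC on the other strand, in Gsn and Bgn.
Col3a1: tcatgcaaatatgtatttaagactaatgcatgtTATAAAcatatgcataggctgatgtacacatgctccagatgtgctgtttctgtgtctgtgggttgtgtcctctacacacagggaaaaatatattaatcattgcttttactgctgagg
Gsn: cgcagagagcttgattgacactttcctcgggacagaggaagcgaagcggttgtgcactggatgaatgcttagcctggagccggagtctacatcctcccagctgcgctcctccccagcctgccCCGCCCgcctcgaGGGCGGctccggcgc
Bgn: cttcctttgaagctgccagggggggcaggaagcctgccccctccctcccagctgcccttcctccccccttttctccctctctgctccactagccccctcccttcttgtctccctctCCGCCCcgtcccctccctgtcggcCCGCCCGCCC
The TATAAA of Col3a1 begins 117 bases before the start. The GC boxes of Gsn begin 28 and 15 bases before it, and those of Bgn 34, 10 and 6 bases before it, the last 2 of which overlap.

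Over the 250 bases before the start, on both strands, GGGCGG was found in 23 of the 39 matched genes (59.0%) and in 32.9% of 27025 promoters. TATAAA was found in 5 of 39 (12.8%) against 13%, CCAAT in 12 of 39 (30.8%) against 34.5%, and the cyclic AMP response element TGACGTCA in 0 of 39 against 1.6%. The median number of CpG sites was 10 in the matched genes and 6.0 in all promoters. All these matches are descriptions of letters, not of bound sites.

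Values are RPM, the reads of a gene scaled to the library total, not corrected for gene length unless given per kilobase. Library totals ran from 7375270 to 20927428 reads, and the level of 3 reads, below which a gene with no read could still lie, was 0.143 to 0.407 RPM. Wfdc15a itself ran from 207 to 267 RPM in the WT libraries, 48.4 to 71.5 RPM in Het and 36.8 to 116 RPM in KO, so every KO library held reads of it and the Het levels lay within the range of KO. Libraries of both cell types split along their first principal component, computed without the 51 genes, into the WT libraries with KO replicate 1 on one side and the Het libraries with KO replicates 2 and 3 on the other. That component carried 71.5% (testis) and 55.0% (round spermatids) of the variance. The first are called the WT-side libraries and the second the Het-side libraries below; the split is read from these data, no label names a batch, and no Het library lies on the WT side and no WT library on the Het side, so for these 2 genotypes genotype and side cannot be told apart.

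In sorted round spermatids, matrix transcripts were scarce in 3 libraries and plentiful in 4. The 51 genes summed to 259 and 338 RPM in WT and 225 RPM in KO replicate 1, but to 1360 and 1163 RPM (Het) and 1413 and 1999 RPM (KO replicates 2 and 3). Whole testis followed the same sides, with 141 and 166 RPM in WT, 534 RPM in KO replicate 1, 2139 RPM in Het, and 2256 and 2922 RPM for KO replicates 2 and 3. In bulk RNA, fewer cells of a type and less RNA per cell cannot be told apart.

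**Figure D1:**
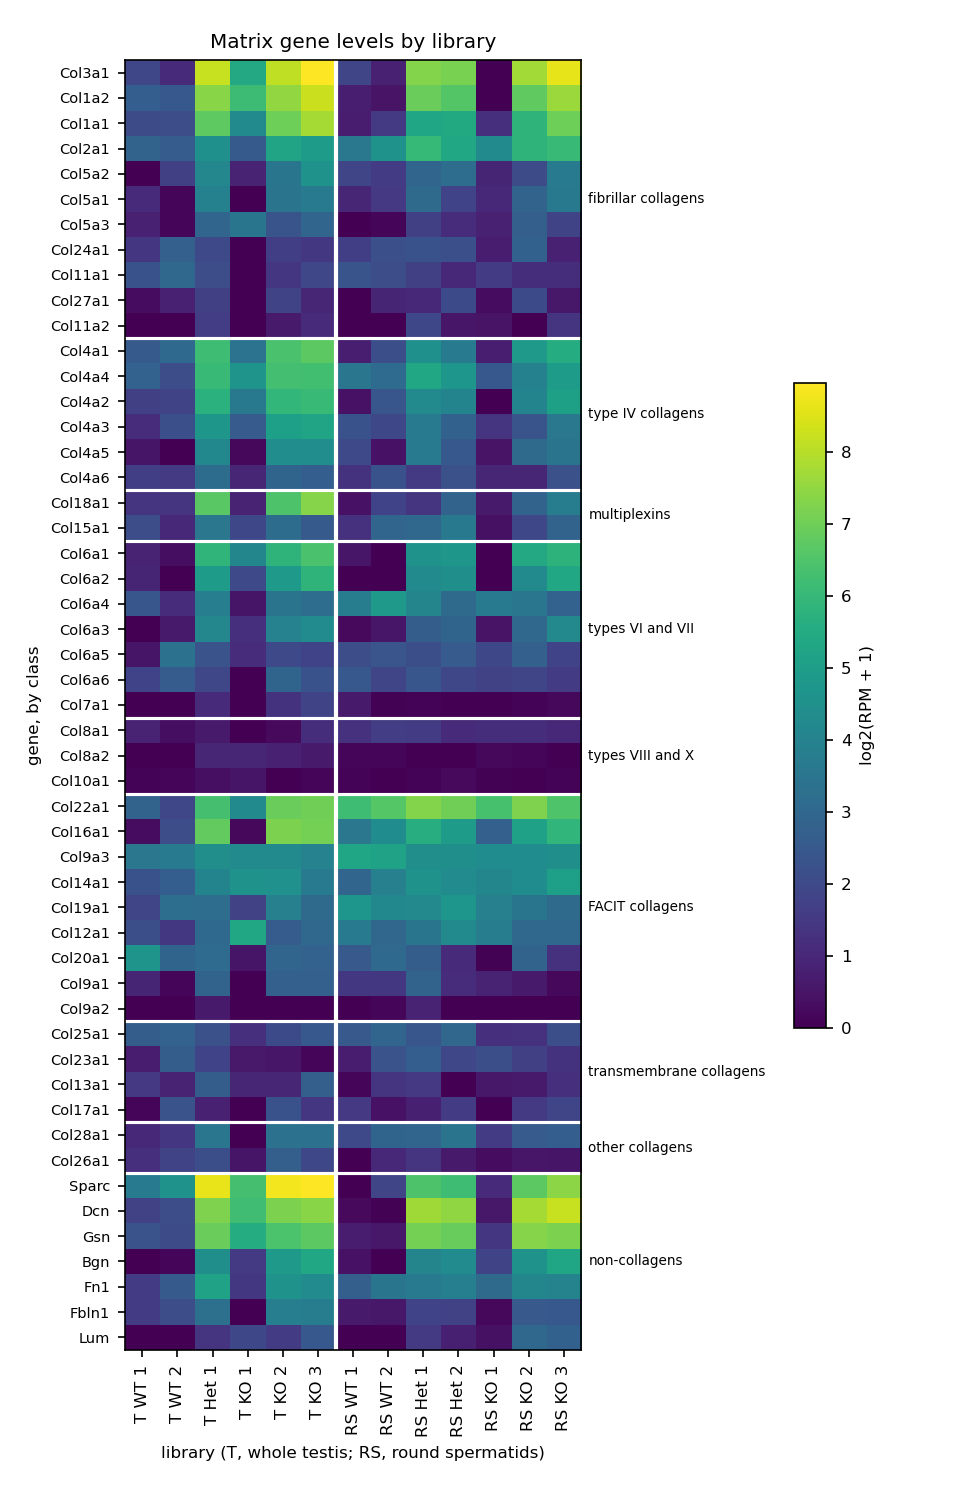
Level of each of the 51 genes in each library on the log2(RPM + 1) scale, from dark blue (0) to yellow (highest), grouped by class, with testis (T) libraries on the left and round spermatid (RS) libraries on the right. Types I and III, Col6a1, Col6a2 and most genes that are not collagens are dark in the WT libraries and RS KO replicate 1 and bright in the Het libraries and KO replicates 2 and 3, whereas Col22a1 is bright in all 7 RS libraries.

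Dcn (chromosome 10, 97479609 to 97518143 of mm10) showed this split in its plainest form. It stood at 0.18 and 0.05 RPM in WT round spermatids (3 reads and 1 read) and at 0.48 RPM in KO replicate 1 (10 reads). In the other sorted libraries it stood at 206 and 177 RPM (Het) and at 214 and 299 RPM (KO replicates 2 and 3). Whole testis had 2.39 and 3.29 RPM (WT), 148 RPM (Het) and 73.0, 146 and 166 RPM (KO). Every sorted Het-side library thus lay above every testis library. Lum, the other proteoglycan on the same chromosome (97565128 to 97572703), was low throughout: it had no read in the WT libraries of either cell type, 1.63 RPM in Het testis and 2.85, 2.04 and 4.50 RPM in KO testis. In sorted cells Lum reached 1.86 and 0.74 RPM (Het) and 0.33, 6.97 and 5.82 RPM (KO).

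Gsn (chromosome 2, 35256380 to 35307892) had 0.64 and 0.49 RPM in WT round spermatids, 135 and 118 in Het and 1.67, 161 and 144 in KO, against 3.96 and 3.17 in WT testis, 121 in Het and 46.4, 84.3 and 104 in KO. Its Het-side levels in sorted cells overlapped those of the testis libraries. Bgn had 0.35 RPM and no read in WT round spermatids, 16.1 and 19.1 in Het and 2.58, 23.0 and 38.9 in KO, against no read and 0.13 in WT testis, 21.3 in Het and 1.90, 26.9 and 40.9 in KO. The 2 ranges on the Het side again overlapped.

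Among the fibrillar collagens, the chains of types I and III moved with Dcn. Col3a1 (chromosome 1, 45311538 to 45349706) stood at 2.69 and 0.78 RPM in WT round spermatids, 157 and 142 in Het and 0, 212 and 398 in KO, and at 2.71 and 1.14 RPM in WT testis, 294 in Het and 41.8, 273 and 499 in KO. Col1a2 (chromosome 6, 4504814 to 4541544) had 0.70 and 0.39 RPM in WT round spermatids, 120 and 95 in Het and 0, 109 and 196 in KO, with 5.42 and 4.56 in WT testis, 164 in Het and 69.0, 182 and 301 in KO. Col1a1, the partner chain of Col1a2 in type I collagen, had 0.64 and 1.86 RPM in WT round spermatids, 38.5 and 42.2 in Het and 1.29, 55.8 and 126 in KO, with 3.20 and 3.29 in WT testis, 105 in Het and 18.2, 126 and 213 in KO. KO replicate 1 of the sorted cells lay within the WT range for Col1a1 and below it, with no read, for Col3a1 and Col1a2. For these 3 genes KO replicate 1 of testis lay between WT and the rest.

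Sparc (chromosome 11, 55394500 to 55423183) was the member at the highest level per kilobase in Het and KO testis. It had 11.5 and 22.5 RPM in WT testis, 408 in Het and 78.4, 451 and 489 in KO, against no read and 2.70 RPM in WT round spermatids, 87.0 and 72.2 in Het and 1.10, 104 and 167 in KO. Every Het-side sorted library lay below every Het-side testis library. Fn1 differed less between sorted libraries, with 5.49 and 10.1 RPM in WT, 12.3 and 13.7 in Het and 7.55, 16.3 and 15.1 in KO; testis had 2.01 and 4.81 in WT, 34.9 in Het and 1.76, 23.5 and 19.3 in KO. Fbln1 stayed at or below 4.63 RPM in every sorted library and reached 8.93 RPM in Het testis, with no read in testis KO replicate 1 and 13.3 and 12.9 RPM in replicates 2 and 3.

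**Figure D2:**
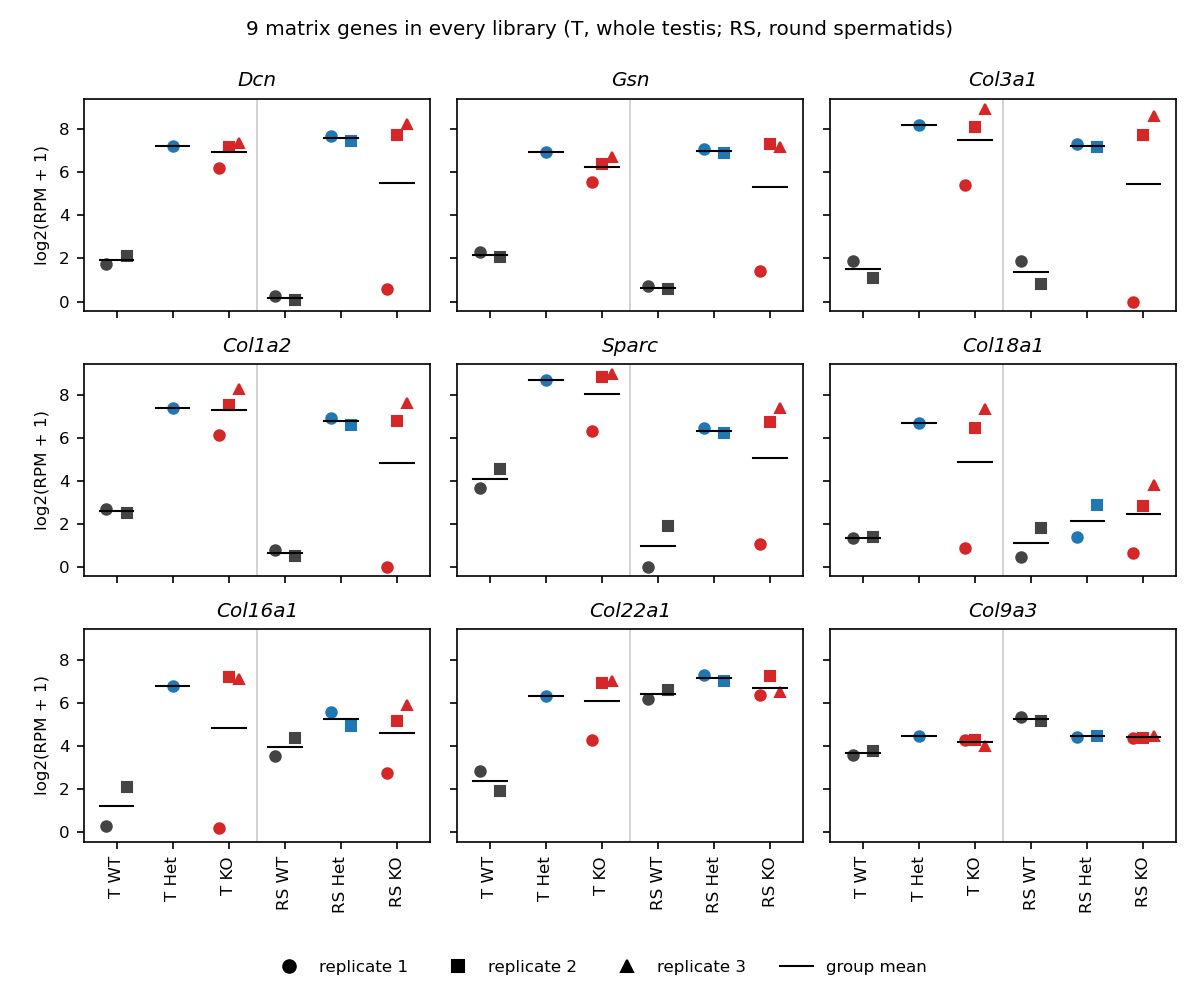
Level of 9 matrix genes in every library on the log2(RPM + 1) scale, one panel per gene, with groups on the x axis (T, testis; RS, round spermatids), points coloured by genotype and shaped by replicate, and lines at group means. Dcn lies between 177 and 299 RPM in 4 sorted libraries and at or below 0.48 RPM in the other 3, while Col22a1 lies between 72.1 and 157 RPM in all 7.

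Basement membrane collagens were present in Het-side testis at higher levels than in sorted cells. Col4a1 had 72.0 RPM in Het testis and 83.2 and 105 in KO replicates 2 and 3, against 21.9 and 12.4 RPM in Het round spermatids and 27.1 and 45.5 in KO replicates 2 and 3. In the WT-side libraries it was at 4.88, 7.41 and 9.63 RPM in testis and 0.70, 3.43 and 0.67 in sorted cells. Col4a2, its partner chain, ran from 52.2 to 66.6 RPM in Het-side testis and from 15.4 to 33.2 in Het-side sorted cells. The 6 type IV genes lie in 3 head-to-head pairs, with start sites 21 bases apart in overlapping first exons for Col4a1 and Col4a2 (chromosome 8), 72 bases apart for Col4a3 and Col4a4 (chromosome 1) and 1309 bases apart for Col4a5 and Col4a6 (chromosome X).

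Col18a1, a multiplexin of basement membranes whose end fragment is endostatin, was the member that differed most between cell types on the Het side. It stood at 1.52 and 1.58 RPM in WT testis, 100 in Het and 0.81, 87.0 and 162 in KO, but at 0.35 and 2.5 RPM in WT round spermatids, 1.60 and 6.19 in Het and 0.57, 6.15 and 12.9 in KO. Type VI collagen, which forms beaded filaments around cells, was divided. Col6a1 ran from 22.8 to 54.9 RPM in Het-side sorted cells and from 56.6 to 82.7 in Het-side testis, and was at or below 0.81 RPM in WT libraries of both cell types, and Col6a2 and Col6a3 split in the same direction. Col6a4 instead had 12.9 and 26.9 RPM in WT round spermatids, 15.9 and 7.57 in Het and 11.9, 10.5 and 6.10 in KO, and Col6a5 and Col6a6 lay between 1.92 and 5.74 RPM in all 7 sorted libraries. At the other end, Col10a1, Col8a2 and Col9a2 stayed below 1 RPM in all 13 libraries.

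Another group of members, nearly all collagens, was chosen by its level in WT round spermatids. In both WT libraries 23 of the 51 genes had 1 RPM or more: 8 of 9 collagens of the FACIT class (fibril-associated, with interrupted helices), 4 of 11 fibrillar, 3 of 6 type IV and 3 of 7 of types VI and VII. The rest were 1 of 2 multiplexins (Col15a1), 1 of 4 transmembrane (Col25a1), 1 of 2 other collagens (Col28a1), 1 of 3 of types VIII and X (Col8a1), and, of the 7 genes that are not collagens, Fn1. In sorted cells these 23 genes held 94.2% and 91.8% of the summed matrix RPM in WT and 92.7% in KO replicate 1. They held 34.7% and 33.4% in Het and 26.8% and 19.2% in KO replicates 2 and 3. In testis their shares were 65.9% and 59.5% in WT, 22.5% in Het and 27.4%, 25.3% and 18.7% in KO. The other 28 genes summed to 15.1, 27.6 and 16.4 RPM in the WT-side sorted libraries, none above 4.32 RPM, and to 774 to 1616 RPM in the Het-side ones. Since WT levels chose the 23, their share in WT is fixed in part by that choice. In sorted KO replicates 1, 2 and 3, 17, 21 and 20 of them had 1 RPM or more. Over the sorted libraries Col20a1 ran from 0.05 to 7.36 RPM and Col15a1 from 0.33 to 11.4 RPM. Col2a1, Col16a1, Fn1, Col14a1, Col4a3, Col4a4 and Col5a2 also lay higher in every Het-side sorted library than in every WT-side one. Of all genes, 25.6% did so. The share of all genes at 1 RPM or more in both WT libraries is not given here.

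**Figure D3:**
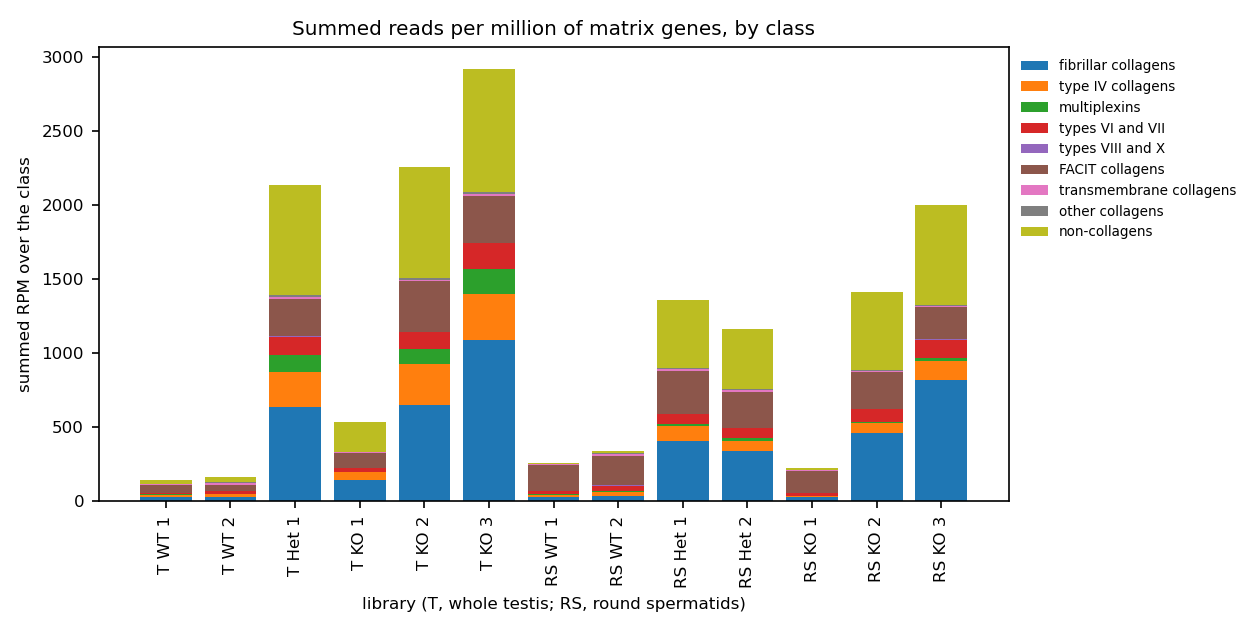
Summed RPM of the matrix genes by class, one stacked bar per library. In the 3 WT-side round spermatid (RS) bars FACIT collagens make up most of the total of 225 to 338 RPM, while the 4 Het-side RS bars of 1163 to 1999 RPM are mostly fibrillar collagens and genes that are not collagens.

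Per kilobase of exon, Col9a3 (mean 9.60 RPM per kb) and Col22a1 (9.16) had the highest levels of the 51 in WT round spermatids, followed by Col19a1 (3.08), Col6a4 (2.33), Col16a1 (2.23) and Col2a1 (1.85). Col22a1, a FACIT collagen known from tissue junctions such as that of muscle and tendon, had 72.1 and 96.5 RPM in WT round spermatids, 157 and 129 in Het and 81.2, 151 and 89.4 in KO. In testis it had 6.18 and 2.72 RPM in WT, 79.8 in Het and 18.4, 120 and 128 in KO. Across the 7 sorted libraries its highest level was 2.18 times its lowest, whereas Dcn ran from 0.05 to 299 RPM.

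Col9a3, a chain of the cartilage collagen type IX, had 39.0 and 35.0 RPM in WT round spermatids and 19.5 to 21.0 RPM in the 5 other sorted libraries, with 10.7 to 20.6 RPM in testis. Its 3′ end on the plus strand of chromosome 2 (180597790 to 180622189) overlaps that of Tcfl5 on the minus strand (180621956 to 180642708), a transcription factor gene of male germ cells. Tcfl5 was at 114 and 120 RPM in WT round spermatids, 84.4 to 101 in the other sorted libraries and 52.4 to 73.6 in testis. The libraries keep no strand, so reads from the overlap cannot be told apart, and the other type IX chains were low: Col9a1 was at or below 6.26 RPM and Col9a2 at or below 0.80 RPM in all 13 libraries. In all, 14 of the 51 genes share exon sequence with another annotated gene, 11 of them with one on the opposite strand, Col22a1 (the antisense gene Gm16308, at most 0.38 RPM) among them.

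Other members of this group behaved in several ways across sorted libraries. Col2a1, the chain of cartilage fibrils, ran from 10.9 to 23.3 RPM on the WT side and from 39.7 to 66.2 RPM on the Het side. Col16a1, another FACIT collagen, ran from 5.73 to 19.5 and from 29.3 to 59.0 RPM. The sides lay apart too for Col4a4 (4.49 to 39.8 RPM), Col14a1 (6.54 to 32.1), Col5a2 (0.91 to 11.9) and Col4a3 (1.53 to 11.6). Col19a1 ran from 7.67 to 25.2 RPM with the sides overlapping, and so did Col12a1 (6.77 to 17.9 RPM) and Col6a4 (6.10 to 26.9 RPM). The sides also overlapped for Col28a1 (1.91 to 9.88 RPM), Col25a1 (1.34 to 6.74), Col9a1 (0.14 to 6.26) and Col24a1 (0.62 to 5.92). Likewise they overlapped for Col11a1 (1.02 to 3.97 RPM), Col4a6 (0.94 to 3.78) and Col8a1 (0.99 to 2.06). No gene of the 51 was lower in all Het-side sorted libraries than in all WT-side ones.

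KO and WT were compared within each cell type by limma, a linear model with a moderated spread across genes, on log2(RPM + 1) and with Benjamini-Hochberg adjustment over all genes tested. In round spermatids none of 46 tested members was called at an adjusted p under 0.05, as was none of all 18075 genes (0.00%), and voom on the recovered reads called none of the members. At an unadjusted p under 0.05 were 16 members (21.1% of all genes). The median member difference was 0.57 on the log2 scale, against 0.03 over all genes, with 31 differences positive and 15 negative. Those furthest up were Dcn (5.36, SE 1.76), Gsn (4.67, SE 1.39), Col1a2 (4.18, SE 1.72), Sparc (4.12, SE 1.48) and Col3a1 (4.10), and those furthest down Col20a1 (-1.38), Col25a1 (-1.17), Col19a1 (-0.96), Col6a4 (-0.95) and Col11a1 (-0.90); the smallest adjusted p of a member was 0.121. Without KO replicate 1, KO and WT lie on different sides and 24 members were called, 22 higher and 2 lower. Over all genes, 25.6% lay higher in every Het-side sorted library than in every WT-side one and 13.5% lower. The share of all genes called in that fit is not given, so the count is no result about the members alone.

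Inside the WT side, KO replicate 1 against the 2 WT sorted libraries gave 1 called member, Col20a1, which was lower (-2.71 on the log2 scale), beside 1.26% of all genes in limma; the lone KO library is assumed there to vary as WT does. Inside the Het side, KO replicates 2 and 3 against Het gave no called member in sorted cells (0.0235% of all genes called) and none in testis (0.0627%). Both KO libraries lay above both Het libraries in sorted cells for Dcn, Col3a1 and Col1a1, among others. The differences were 0.41, 0.95 and 1.04 on the log2 scale (limma adjusted p = 0.539, 0.275 and 0.379). They lay below both Het libraries for Col19a1, Col9a1 and Col12a1, among others (-1.17, -1.57 and -0.88, limma adjusted p = 0.391, 0.471 and 0.540). The genes of both directions are examples, and the share of all genes without overlap is not given. These fits within a side were added after the data were seen.

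Het minus WT in round spermatids gave a larger median difference than KO minus WT, again with no call. Limma called 0 of 46 members and 0 of 18075 genes (0.00%), and voom called 0 members. Both Het libraries lay on the Het side, while the KO mean included KO replicate 1 of the WT side. The sizes of the differences therefore do not rank Het against KO. At an unadjusted p under 0.05 were 15 members (25.1% of all genes), and 39 of 46 differences were positive. Dcn differed by 7.43 (SE 1.93, limma adjusted p = 0.0732), Gsn by 6.35 (SE 1.53, adjusted p = 0.0649), Bgn by 3.99 (SE 0.91, adjusted p = 0.0638), Col1a2 by 6.13, Col3a1 by 5.87 and Sparc by 5.38. The median was 1.13 against 0.23 over all genes. Col20a1 (-0.92), Col11a1 (-0.86), Col9a3 (-0.81), Col6a4 (-0.71) and Col8a1 (-0.11) were furthest down. KO minus WT and Het minus WT share the WT libraries.

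In testis KO minus WT called 0 of 47 members and 0 of 18570 genes (0.00%) in limma, and 0 members in voom, with 18 members at an unadjusted p under 0.05 (23.6% of all genes). Differences were positive for 39 and negative for 8 members, with a median of 1.77 against 0.63 over all genes. Col3a1 differed by 6.0 (SE 1.04), Dcn by 5.0 (SE 0.52), Col6a1 by 4.86, Col1a2 by 4.72 (SE 0.66) and Col1a1 by 4.24 (SE 1.03). Col20a1 (-1.69), Col11a1 (-1.54), Col23a1 (-1.23), Col24a1 (-1.05) and Col25a1 (-0.83) were furthest down, and the smallest adjusted p of a member in limma was 0.0710. Without KO replicate 1, 31 members were called, and KO and WT then lie on different sides. Over all genes, 50.2% lay higher in every Het-side testis library than in every WT-side one and 11.7% lower. For that fit too the share of all genes called is not given, so the count is no result about the members alone.

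Inside the WT side, testis KO replicate 1 is a single library set against the 2 WT ones, so the spread comes from the WT pair alone and the calls compare these libraries, not the genotypes. It was higher for 11 of 30 tested members and lower for 5 in limma at an adjusted p under 0.05, beside 19.3% and 22.8% of all genes. Higher were Dcn (4.28 on the log2 scale), Col3a1 (3.92), Col12a1 (3.56), Col1a2 (3.55), Gsn (3.38), Sparc, Col4a4, Col1a1, Col14a1, Col22a1 and Col4a2, and lower were Col20a1 (-3.28), Col11a1 (-2.64), Col6a6 (-2.21), Col24a1 (-2.09) and Fbln1 (-1.85). In the same library the globins Hba-a1 and Hbb-bs were at 361 and 111 RPM, against at most 42.3 and 20.0 RPM in the other testis libraries, while the Sertoli cell gene Clu (2.44 RPM) and the smooth muscle actin gene Acta2 (0.27 RPM) were below their WT levels (16.3 and 17.5 RPM, and 6.51 and 12.4 RPM). Their part in the result was not tested.

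Every Het-side testis library lay above every WT-side one for 32 of 47 members (68.1%, against 50.2% of all genes), and below for 0 (11.7% of all genes). In round spermatids the corresponding counts were 24 of 46 (52.2%, against 25.6%) and 0 (13.5%). The 24 included Dcn, Lum, Bgn, Gsn, Sparc, Fn1 and Fbln1, all 7 members that are not collagens, the type I, III and V chains, and Col6a1, Col6a2 and Col6a3 but not Col6a4, Col6a5 or Col6a6. Among the 4 Het-side sorted libraries, KO replicate 3 held the highest level for 19 of 45 members with a mean of at least 1 RPM (42.2%, against 24.3% of all genes).

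Sorted cells were next compared with testis of the same genotype, a comparison of which matrix transcripts a spermatid library carries beside the tissue it came from. In WT, Col22a1 was higher in round spermatids by 4.03 on the log2 scale (SE 0.77, limma adjusted p = 0.00681) and Col9a3 by 1.60 (SE 0.36, adjusted p = 0.0158). These 2 of 48 tested members (4.17%) were the calls, all higher, in limma and also the number called by voom, beside 11.5% of 20085 genes (9.09% higher and 2.39% lower). The median difference of the members was 0.00, against 0.20 over all genes. With quantile-normalized or median-centred libraries the count fell to 1, with Col9a3 at 1.02 (adjusted p = 0.195) and 1.25 (adjusted p = 0.216). Col9a3 was also not called without any 1 of the 4 libraries, and Col22a1 was not called without testis WT replicate 2 (adjusted p = 0.0636) or round spermatid WT replicate 2 (0.0702).

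In KO, 0 of 48 members were called between sorted cells and testis in limma, beside 2.36% of 20085 genes (0.936% higher and 1.42% lower), and 0 in voom; 4 had an unadjusted p under 0.05 (21.8% of all genes). With the replicate number within each genotype as a block, Sparc (-2.96, adjusted p = 0.0389) and Col4a4 (-1.96, adjusted p = 0.0352) were called lower. No label pairs the libraries. Same-numbered KO libraries lie on the same side in both cell types, so their shared deviations do not show a pairing. Without testis KO replicate 1 the count was 12. The difference of the KO effect between the cell types was called for 0 of 48 members in limma, beside 2.13% of all genes (0.294% higher and 1.84% lower), and 0 in voom, with 3 members at an unadjusted p under 0.05 (17.2% of all genes): Col22a1 (-3.40), Col4a4 (-2.82) and Col9a3 (-1.37). With the block Col22a1 (adjusted p = 0.0498) and Col4a4 (adjusted p = 0.0455) were called, and without testis KO replicate 1 the count was 11. The counts of 12 and 11 stand without the share of all genes called in the same fits. They are therefore no result about the members alone.

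Within the Het side, where matrix transcripts were plentiful, 4 sorted libraries were compared with 3 testis libraries. Of 48 tested members, 4 were higher in sorted cells and 22 lower in limma at an adjusted p under 0.05 (8.3% and 45.8%), beside 17.6% and 39.8% of 18995 genes (57.4% in all). Higher were Dcn (0.52, SE 0.14, adjusted p = 0.00424), Gsn (0.44, SE 0.14, adjusted p = 0.0117), Col2a1 (0.91, SE 0.21, adjusted p = 0.00104) and Col23a1 (1.07, SE 0.42, adjusted p = 0.0380). Lowest were Col18a1 (-4.11, SE 0.39, adjusted p = 1.44e-07) and Sparc (-2.12, SE 0.19, adjusted p = 8.91e-08). The share of members that fell was near that of all genes.

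In that comparison 39.8% of all genes were lower and 17.6% higher. The lower shares of fibrillar (36.4%) and FACIT collagens (37.5%) were near that of all genes. So were those of types VI and VII (42.9%) and of the genes that are not collagens (42.9%). All 6 type IV genes were lower, from -1.92 (Col4a3) to -1.16 (Col4a5), with a median of -1.51. Of 11 fibrillar collagens 4 were lower, Col1a1 by -1.27, Col5a2 by -1.11, Col1a2 by -0.73 and Col3a1 by -0.71, and 1 was higher (Col2a1). Of 8 tested FACIT collagens 3 were lower (Col16a1, Col9a1 and Col20a1), and Col22a1 (0.26, adjusted p = 0.233) and Col9a3 (0.19, adjusted p = 0.438) were not called. Of types VI and VII 3 of 7 were lower (Col6a1, Col6a3 and Col7a1). Among the 7 genes that are not collagens Fbln1 (-1.52), Fn1 (-0.77) and Sparc fell, Dcn and Gsn rose, and Bgn (-0.31) and Lum (0.20) were not called.

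**Figure D4:**
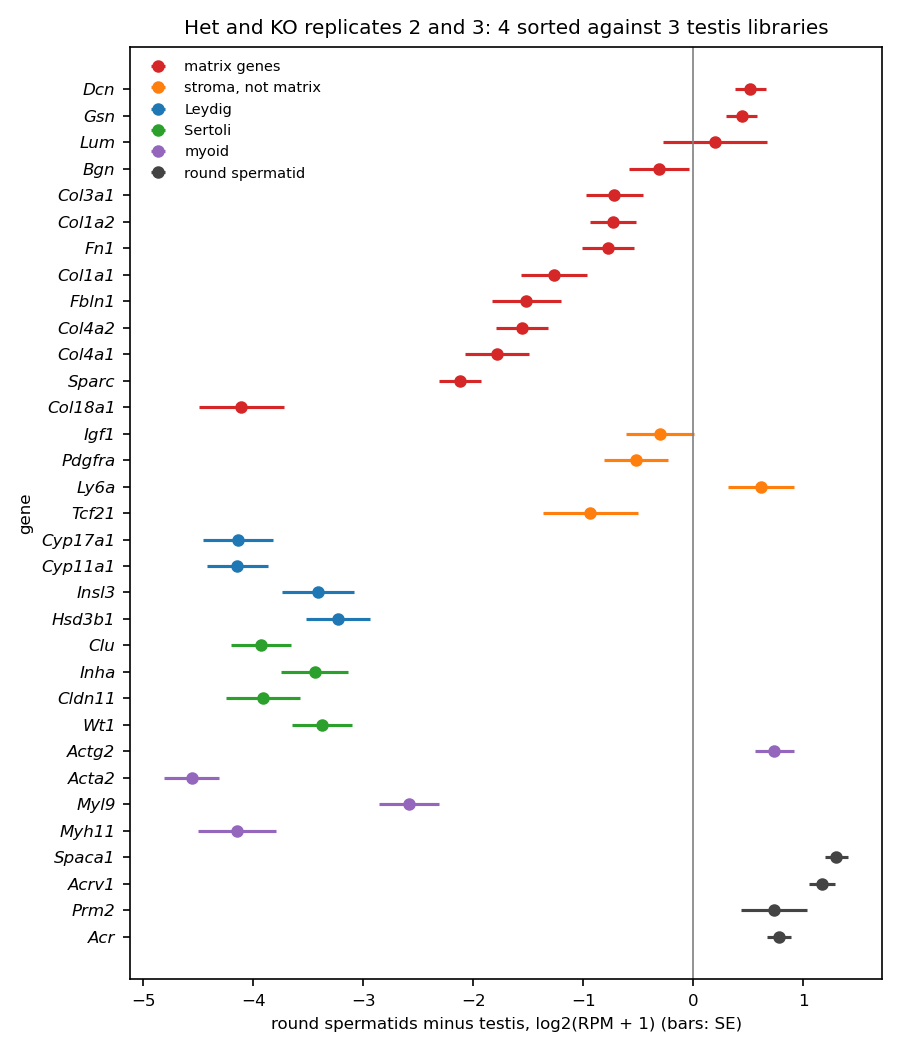
Difference between round spermatids and testis on the log2(RPM + 1) scale among the Het-side libraries (4 sorted against 3 testis) for 13 matrix genes and up to 4 genes of highest mean level from each of 5 marker lists; bars are limma standard errors. Dcn and Gsn lie to the right of 0 and Col18a1 at -4.11, and the Leydig and Sertoli cell markers all lie at -3.23 or lower.

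Markers of other testis cells fell in the same comparison. All 7 Leydig cell markers were lower in sorted cells (median -3.23), as were all 11 Sertoli cell markers (median -3.19) and 5 of 7 peritubular myoid markers (Acta2 by -4.56, Myh11 by -4.15); another myoid marker, Actg2, was higher (0.74, adjusted p = 0.00211). Of 12 round spermatid markers 10 were higher, with a median of 0.95, and 0 were lower. Of 6 tested interstitial stroma markers that are not matrix genes, 2 were lower and 0 higher, with a median of -0.727 against -0.323 over all genes. The 2 were Nr2f2 (-1.237, limma adjusted p = 0.0129) and Pdgfrb (-1.155, limma adjusted p = 0.0234). Tcf21 (-0.933, limma adjusted p = 0.0722) was not called. Pdgfra, a receptor of fibroblast-like interstitial cells, differed by -0.52 (adjusted p = 0.136), Ly6a by 0.62 (adjusted p = 0.0837) and Igf1 by -0.30 (adjusted p = 0.419), none of them called.

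Several marker lists differed between the sides in sorted cells. The 7 stroma genes summed to 6.72 and 13.6 RPM in WT round spermatids and 4.68 RPM in KO replicate 1, and to 46.3, 50.3, 55.6 and 87.7 RPM in the Het-side libraries, and Pdgfra ran from 0 to 0.93 and from 10.1 to 34.5 RPM; Pdgfrb (0 to 2.48 RPM) and Igf1 (4.50 to 28.5 RPM) overlapped between the sides. Sertoli cell markers summed to 11.8 to 18.8 RPM on the WT side and 67.4 to 180 RPM on the Het side, and Leydig cell markers to 0.29 to 1.48 and 23.2 to 76.1 RPM. Meiotic spermatocyte markers summed to 487 to 572 and 945 to 1088 RPM. Peritubular myoid markers went the other way, with 110 to 143 RPM on the WT side and 74.6 to 89.6 RPM on the Het side, mostly from Actg2, and endothelial markers overlapped (4.35 to 13.3 and 2.91 to 13.3 RPM). Round spermatid markers summed to 2331 to 2440 RPM on the WT side and 1448 to 1973 RPM on the Het side. In WT testis Sertoli cell markers were low as well, with sums of 68.8 and 71.1 RPM against 1474 RPM in Het testis. Macrophage markers summed to 317 and 397 RPM in WT testis and 996 RPM in Het testis. Round spermatid markers summed to 4295 and 2063 RPM in WT testis and 855 RPM in Het testis. The Sertoli hormone gene Amh had no read in WT testis or testis KO replicate 1, and the Leydig enzyme gene Cyp17a1 had none in WT round spermatids. The part of these markers in the levels of the matrix genes was not tested.

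Genes that make, process or bind collagen followed several patterns. Of 25 tested genes of collagen synthesis and cross-linking, 0 were higher and 11 lower in Het-side sorted cells than in testis (median -0.50 against -0.32 over all genes), a share of lower genes near the 39.8% of all genes, with 17.6% of all genes higher. P4hb, a subunit of the enzyme that hydroxylates collagen prolines, fell by 1.45 on the log2 scale, and Pcolce, which speeds removal of the procollagen C-terminal end, by 1.48. Mia3, which helps load procollagen for export from the endoplasmic reticulum, was at 91.9 to 151 RPM in every sorted library and was not called (0.22, adjusted p = 0.0981). Crtap, a partner of the prolyl 3-hydroxylase, fell by 0.53 on that scale.

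Of 14 laminin and other basement membrane genes, 9 were lower and 1 higher (median -1.14), beside 39.8% and 17.6% of all genes in this comparison and the next 2 lists. Lamb2 fell by 2.04 on the log2 scale and Nid1, which links laminin to type IV collagen, by 1.18, while Lama2 (-0.10) and Lamb1 (-0.48) were not called. Of 22 other leucine-rich proteoglycan and elastic fibre genes 9 were lower and 1 higher (median -0.61), a share of lower genes near that of all genes; Fbn2 (-2.29) and Ltbp4 (-1.42) fell, Epyc (0.56) rose and Podn (-0.14) was not called. Of 18 matrix receptor genes 9 were lower and 2 higher (median -0.85).

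The collagen-binding integrin subunit Itga1 was among the 2 receptors that rose (0.73, SE 0.11, limma adjusted p = 2.74e-05). It was at 168 to 288 RPM in all 7 sorted libraries and 32.8 to 192 RPM in testis. Within its span lie Pelo and Gm49395, which were at 4.07 to 9.02 and 7.32 to 16.6 RPM. Its beta partner Itgb1 had 0.59 to 2.04 RPM in WT-side sorted libraries, 19.6 to 30.9 RPM in Het-side ones and 96.4 to 104 RPM in Het-side testis, and fell by 1.96 on the log2 scale. Dag1, the dystroglycan that binds laminin, fell by 2.35 and Itga9 (-0.12) was not called. The genes named from these 4 lists are those at the highest mean level in each.

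Within the WT side, 3 sorted and 3 testis libraries gave 3 higher and 1 lower of 39 tested members in limma, beside 6.30% and 2.28% of 16693 genes (8.58% in all). Col22a1 (3.38), Col6a4 (2.75) and Col16a1 (2.69) were higher and Sparc (-3.85) lower in sorted cells. Col22a1 was thus called higher in sorted cells on the WT side and not called on the Het side, where testis itself had 79.8 to 128 RPM; the difference between the sides was not tested.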

How the data were processed

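RNA was measured in 6 testis and 7 round spermatid libraries of mouse by Smart-seq2, which keeps no strand. Per the submitters' processing notes HISAT2 2.1.0 (build mm10), Trim Galore 0.6.6 and FastQC 0.11.8 were used; neither the counting program nor its annotation is given in the sources used here. The authors deposited log2 RPM, where the lowest value stands for 0.9 read; 99.797% to 99.997% of values in a library came out as whole reads within 0.01 read, and such reads carry no molecular identifiers, so floors cover counting error only.

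Values were returned to RPM, with no read set to 0, and genes reaching 1 RPM in 2 or more libraries were tested on log2(RPM + 1), which understates changes of low genes. Tests were limma 3.58.1 (R 4.3.3; lmFit, eBayes with trend), two-sided, Benjamini-Hochberg adjusted over all genes, threshold 0.05. Cell types were fitted apart for genotype and together for cell type. Same-numbered KO libraries of the 2 cell types deviated together (r = 0.504, 0.283 and 0.403), WT ones did not (r = -0.023), and no label says that they share an animal. Lengths and overlaps came from GENCODE M21. The fits were also run on simulated counts without a split into sides, so that run does not bear on the split. Members, lists and alternatives were chosen with earlier results of these data known. Named are the main members, those at 1 RPM or more in both WT sorted libraries by range, and, per genotype comparison, 5 per direction by size. Alternatives changed scaling, filters, pseudocount, tool, block and the libraries used.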

Additional observations from a re-analysis of the deposited data

How the results depend on the processing

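Of the counts of called members under other settings, 82 stayed within 1.5 times the reported count and 28 did not; of the named members' values, 869 kept direction and call, 62 gained a call, 8 lost one and 14 reversed. No cause was tested. The counts below stand without the share of all genes called under each setting. They show how the settings move the counts and are no result about the members alone.

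KO minus WT in testis (0 called) gave 10 at an adjusted p under 0.1, 21 with the side as a covariate, 16 inside the WT side and 0 to 31 leaving out 1 library. KO minus WT in round spermatids (0) gave 1 inside the WT side and 0 to 24 leaving out 1 library. Het minus WT (0) gave 3 with quantile normalization, 3 with centring, 6 at an adjusted p under 0.1 and 0 leaving out any 1 library. Sorted cells minus testis in WT (2) gave 1 with quantile normalization, 1 with centring, 7 with the covariate, 4 inside the WT side (with KO replicate 1 of both cell types) and 0 to 1 leaving out 1 library. In KO (0) it gave 1 with no filter (Col8a2), 9 with the covariate, 26 inside the Het side (Het and KO libraries pooled) and 0 to 12 leaving out 1 library. The difference between cell types (0) gave 1 with no filter, 3 with the covariate and 0 to 11 leaving out 1 library.

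With the replicate block, KO minus WT in testis gave 6 called members, Het minus WT 9, KO minus WT in round spermatids 0, and sorted cells minus testis 3 in WT and 2 in KO; the difference between cell types gave 2. Numbers of different genotypes did not deviate together (r from -0.018 to 0.046), so there they share only a number.

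With the side as a covariate, KO minus WT in round spermatids reversed for Col1a2 (-0.62) and Col3a1 (-1.36), and Het minus WT for Col1a2 (-1.07), Col3a1 (-2.31) and Sparc (-0.60); the effect of the side is then estimated from KO libraries alone. Leaving out 1 library, Het minus WT of Col8a1 ran from -0.36 to 0.15, positive without WT replicate 2 (0.07) or Het replicate 2. Sorted cells minus testis in KO ran from -0.26 (without testis KO replicate 1) to 1.10 for Col22a1, and from -3.63 to 0.69 (without sorted KO replicate 1) for Col3a1. The difference between cell types ran from -0.11 to 1.23 for Col24a1 (-0.10 without testis WT replicate 2, -0.11 without sorted KO replicate 2), from -0.88 (without testis KO replicate 1) to 1.15 for Fbln1, and from -0.39 to 2.57 for Gsn (-0.39 and -0.31 without sorted KO replicates 2 and 3). Depth limits genes below 0.143 to 0.407 RPM, among them Dcn in WT round spermatids.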
